A study of Mus musculus with 30 samples.

Results

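The later germline genes examined here are 10 genes that act in germ cells after they have settled in the gonad and whose promoters are known targets of silencing by DNA methylation. The genes are *Ddx4*, *Dazl*, *Mael*, *Sycp3*, *Hormad1*, *Asz1*, *Piwil2*, *Tdrd1*, *Mov10l1* and *Stk31*. They were chosen by name, and every probe set of each gene was read, which gave 13 of the 45101 probe sets on the array and 10 of the 18194 genes with a symbol of their own. Expression was measured in 30 single primordial germ cells (PGCs) of mouse embryos at E7.25-E7.5, each cell on its own Affymetrix mouse genome array. The cells came from matings between *Prdm14*+/- C57BL/6 mice, were picked singly from the dissociated base of the allantois and were kept as PGCs where PCR on the amplified cDNA found *Prdm1*. *Prdm14* encodes a regulator of epigenetic reprogramming in PGCs, and the genotype label of each cell was *Prdm14* (+/+), called WT here (13 cells), *Prdm14* (+/-), called Prdm14+/- (13 cells), or *Prdm14* (-/-), called Prdm14 KO (4 cells). All cells share the C57BL/6 background, and no other allele or agent is named for them. The embryo of origin is not named for any cell, so cells of a label may share an embryo, and a spread between cells is not a spread between animals.

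PGCs are the precursors of oocytes and sperm. Shortly after they arise they lose most of the DNA methylation inherited from the epiblast, and a set of germline genes with CpG-rich, methylated promoters is known to switch on around the time when that loss is completed in the gonad. Those genes serve RNA regulation in germ cells, the piRNA pathway, in which PIWI proteins loaded with small RNAs silence transposons, and the assembly of meiotic chromosomes. The question put to these data was in how many early PGCs, before the genome-wide demethylation has run its course, the transcripts of such genes were already detectable, and whether the number differed with the genotype label or with the array run.

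The promoter letters of these genes are shown first, because the shared features of the group lie there. RefSeq promoter windows on build GRCm38.p6 cover 250 bases before and 50 bases after an annotated start site, and 9 of the 10 genes had such a window, all but *Piwil2*. Where a gene had several, as *Tdrd1* (3), *Hormad1* (2) and *Stk31* (2) did, the window nearest to the outer end of its RefSeq span was used. Over all 32851 windows the median was 7 CpG dinucleotides, and 34.6% of windows held at least 15. All 9 windows used reached 15, and since the genes were chosen as targets of DNA methylation, a CpG-rich promoter is close to the choice itself. *Ddx4* held the most with 38, followed by *Stk31* with 29, *Dazl* with 28, *Mael* and *Hormad1* with 24 each, *Tdrd1* and *Mov10l1* with 20 each, *Asz1* with 17 and *Sycp3* with 15. The windows not used held 24 for *Hormad1*, 28 for *Stk31*, and 25 and 3 for *Tdrd1*, and that last *Tdrd1* window held no E-box (described below). The order of CpG content was not the order of detection, since *Asz1* and *Sycp3*, at the low end of the group, were above the floor in 20 and 13 of the 30 cells, whereas *Dazl* and *Hormad1* were above it in 0.

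**Figure D1:**
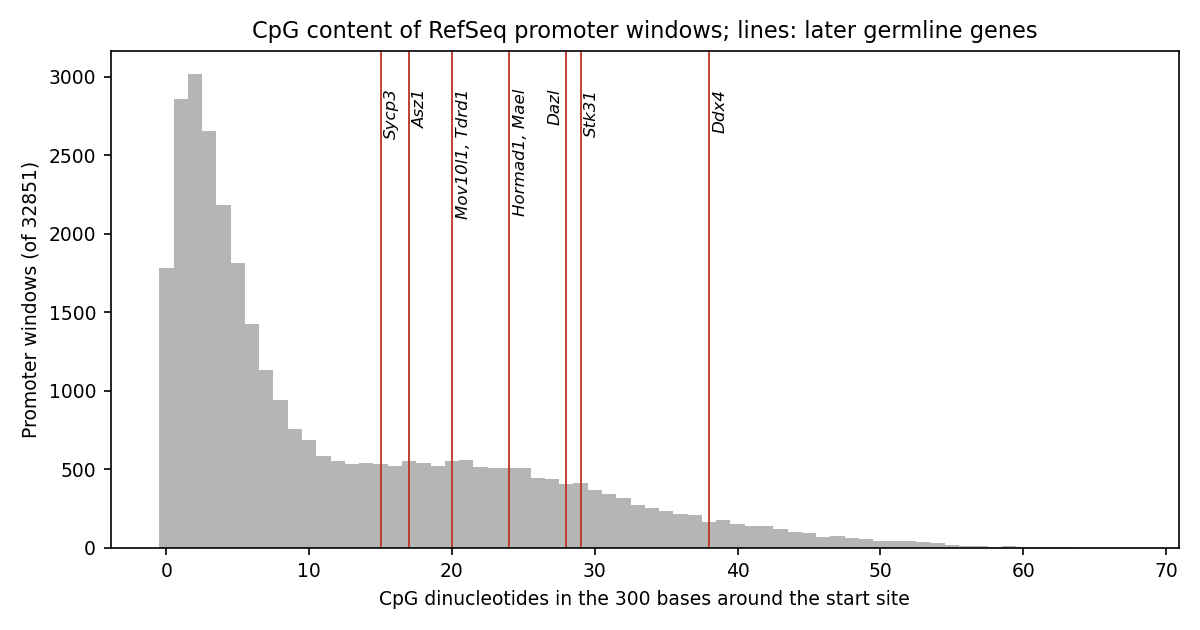
CpG dinucleotides per 300-base RefSeq promoter window (horizontal axis) against the number of windows with that count (vertical axis, 32851 windows, grey bars). Red lines mark the windows of 9 later germline genes, which run from 15 CpG for *Sycp3* to 38 for *Ddx4*, all above the median of 7.

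The 250 bases before the start site are printed for *Sycp3*, *Asz1* and *Dazl* to set a pair of genes that were often detected beside a gene that was not, with each CpG in capitals. They lie at chr10:88459337-88459586 (+ strand), chr6:18109062-18109311 (- strand) and chr17:50293621-50293870 (- strand), and end 1 base before each gene's RefSeq span. They held 12, 15 and 20 CpG, respectively.
Sycp3: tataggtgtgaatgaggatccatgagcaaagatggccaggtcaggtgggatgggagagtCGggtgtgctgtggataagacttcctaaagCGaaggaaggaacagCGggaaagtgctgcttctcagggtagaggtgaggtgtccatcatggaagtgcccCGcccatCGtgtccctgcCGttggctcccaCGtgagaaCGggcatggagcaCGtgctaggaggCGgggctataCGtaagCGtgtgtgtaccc
Asz1: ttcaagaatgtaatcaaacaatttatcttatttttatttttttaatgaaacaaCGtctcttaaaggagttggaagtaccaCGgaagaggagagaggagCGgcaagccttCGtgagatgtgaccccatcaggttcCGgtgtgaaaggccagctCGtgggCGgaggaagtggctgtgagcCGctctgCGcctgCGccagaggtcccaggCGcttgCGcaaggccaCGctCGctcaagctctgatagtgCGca
Dazl: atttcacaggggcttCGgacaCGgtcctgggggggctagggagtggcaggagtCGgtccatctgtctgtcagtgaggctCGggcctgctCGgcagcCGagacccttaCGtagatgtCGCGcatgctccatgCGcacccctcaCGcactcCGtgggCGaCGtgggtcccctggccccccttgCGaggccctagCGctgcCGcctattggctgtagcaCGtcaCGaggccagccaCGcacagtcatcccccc

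The letters CACGTG, an E-box that reads the same on both strands, occurred in 7 of the 9 windows, in *Sycp3* and *Hormad1* at 2 places each. It is the core binding motif of MAX and MGA, subunits of a repressor complex known to act on germline genes. Of all windows, 7.15% held it, and of the 11378 windows with at least 15 CpG, 11.3%. *Dazl* and *Asz1* did not hold these letters in their windows. The copy nearest the start site is printed for each of the 7 genes, with the E-box in capitals. They lie at chr13:112652322-112652351 for *Ddx4* (- strand), chr1:166238950-166238979 for *Mael* (- strand), chr10:88459532-88459561 for *Sycp3* (+ strand), chr3:95559645-95559674 for *Hormad1* (+ strand), chr19:56826186-56826215 for *Tdrd1* (+ strand), chr15:88982744-88982765 for *Mov10l1* (+ strand) and chr6:49395472-49395501 for *Stk31* (+ strand).
Ddx4: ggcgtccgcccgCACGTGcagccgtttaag
Mael: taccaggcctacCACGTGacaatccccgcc
Sycp3: acgggcatggagCACGTGctaggaggcggg
Hormad1: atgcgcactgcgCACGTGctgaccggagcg
Tdrd1: tggggctgcgcgCACGTGggagtaaactgc
Mov10l1: ccttCACGTGctaaccgccaac
Stk31: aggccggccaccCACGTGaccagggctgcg

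The first base of the E-box lay 29 bases before the start site in *Ddx4*, 43 in *Sycp3*, 20 in *Hormad1*, 11 in *Tdrd1* and 55 in *Stk31*, against 223 in *Mael* and 246 in *Mov10l1*. The start sites used for *Ddx4*, *Tdrd1*, *Mov10l1* and *Stk31* lie 323, 38, 103 and 33 bases inside the span that RefSeq gives the gene. The letters GGCGGGAA, a form of the E2F motif searched on both strands, were found in *Ddx4* and *Hormad1*, in 2 of the 9 windows, against 2.19% of all windows and 4.92% of those with at least 15 CpG. The motifs share no letters in these windows. A match is a description of the letters only.

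The genotype labels and the arrays were checked before the genes were read. Values are deposited as log2 of the model-based expression index (MBEI), and a value above 6 on that scale (64 MBEI) is called above the floor, or detected. A mean of 63.7% of probe sets per array were listed at 0. The *Prdm14* transcript ran against the labels, being above the floor in 6 of 13 cells labelled WT, 12 of 13 labelled Prdm14+/- and 4 of 4 labelled Prdm14 KO. The probe set of *Prdm14* may lie outside the altered part of the gene, or the labels may be wrong for some cells. No source used here settles this, so all groups below are cells labelled with a genotype. The PGC marker *Dppa3* was highest under the same label. It was above the floor in 10 of 13, 10 of 13 and 4 of 4 cells of these labels, with a mean of 12.55 ± 0.38 (SD, n = 4 cells) in Prdm14 KO against 9.05 ± 2.01 (SD, n = 13 cells) in WT cells, and against 9.02 ± 2.97 (SD, n = 6 cells) in the Prdm14+/- cells of run 3. The paper reports the reverse, with *Dppa3* downregulated in *Prdm14* KO PGCs. Its microarray evidence is the single-cell array data read here, so the reversal is not a disagreement between 2 data sets. Its other evidence is quantitative PCR on single cells and RNA sequencing of *Prdm14* KO PGC-like cells, in which *Dppa3* was not activated. It also cites weaker DPPA3 immunostaining in *Prdm14* KO PGCs. Whether the labels are right was not tested, and every direction between labels given below carries this doubt. *Prdm1*, on which the cells were selected, was above the floor in all 30 cells, and between 3 and 9 of the 9 measured PGC markers were above it per cell. The 3 cells with at most 5 of these markers were Prdm14+/- cells 3 and 11 and WT cell 11. The array codes fall into 3 runs, whose meaning is not given here by any source. Run 1 held 10 WT cells, run 2 held 3 WT and 7 Prdm14+/- cells, and run 3 held 6 Prdm14+/- and 4 Prdm14 KO cells, so WT and Prdm14 KO cells shared no run.

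The later germline genes were detected in few cells, and in very unequal numbers. Over the 300 pairs of gene and cell, 58 were above the floor, which is 19.3%, against 39.0% over all genes. *Asz1* was detected in 20 cells, *Ddx4* in 14, *Sycp3* in 13, *Stk31* in 6, *Piwil2* in 3, and *Mael* and *Mov10l1* in 1 each. *Dazl*, *Hormad1* and *Tdrd1* were detected in 0 of 30 cells, which allows a share of up to 10% of such cells when 3 counts are taken as the limit of a count of 0. In all, 1 of the 10 genes was above the floor in at least 15 of the 30 cells, against 39.6% of all genes, and 3 of the 10 in 0 cells, against 27.1% of all genes. Intervals and limits given for shares of cells cover counting error only.

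**Figure D2:**
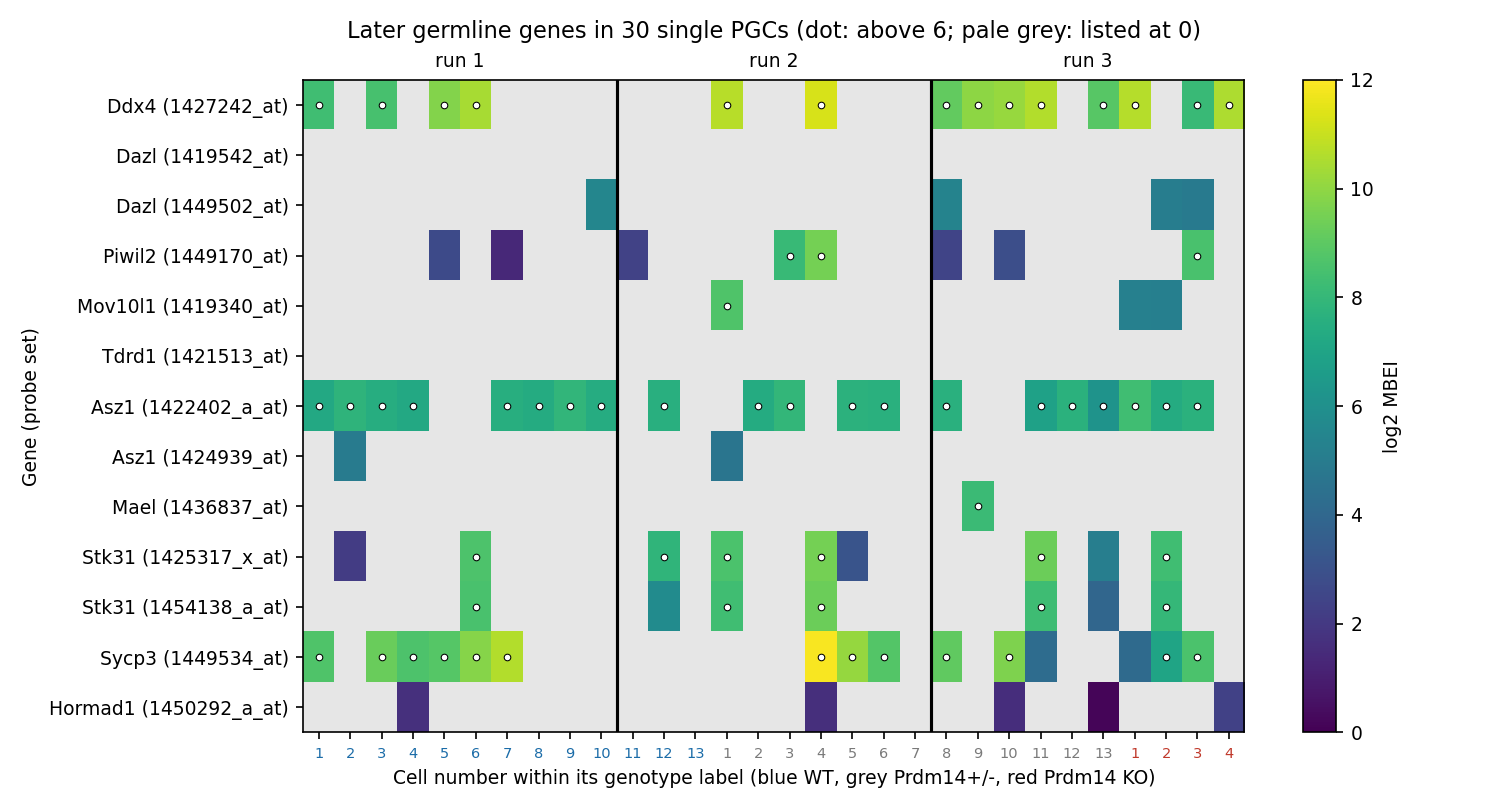
log2 MBEI of the 13 probe sets of the later germline genes (rows) in the 30 single PGCs (columns, grouped by array run and genotype label). Pale grey marks values listed at 0 and white dots mark values above 6. *Ddx4*, *Sycp3* and *Asz1* carry most of the dots, and *Tdrd1* has none.

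*Ddx4*, a germ cell RNA helicase also known as Vasa and widely used as a marker of gonadal germ cells, was either listed at 0 or clearly measured. Its 14 detected cells lay between 8.12 and 11.29 and the other 16 cells were all listed at 0, so that a floor of 0, 4, 6 or 8 gave the same 14 cells. Among cells labelled WT, 4 of 13 were above the floor (30.8%, exact Clopper-Pearson 95% interval 9.09% to 61.4%), at 8.32, 8.49, 9.77 and 10.44. Among cells labelled Prdm14+/-, 7 of 13 were (53.8%, 25.1% to 80.8%), with a highest value of 11.29 and a median over the 13 cells of 8.87. Of the cells labelled Prdm14 KO, cell 1 was at 10.65, cell 3 at 8.12 and cell 4 at 10.52, whereas cell 2 was listed at 0. The detected values of the 3 labels overlapped, and so did the intervals of their shares.

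The *Ddx4* counts also differed between runs, which were not independent of the labels. It was above the floor in 4 of 10 cells of run 1, 2 of 10 of run 2 and 8 of 10 of run 3. Cells with the same label differed between runs: 2 of 7 Prdm14+/- cells were above the floor in run 2 and 5 of 6 in run 3. Within run 3 the 5 of 6 Prdm14+/- cells stood beside 3 of 4 Prdm14 KO cells. The part of the run in the *Ddx4* counts was not tested.

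*Dazl*, an RNA-binding protein needed for germ cell development and, like *Ddx4*, typical of gonadal germ cells, gave no cell above the floor on either of its probe sets. 1 probe set (1419542_at) was listed at 0 in all cells. The other (1449502_at) was above 0 in 4 cells, namely WT cell 10 at 5.51, Prdm14+/- cell 8 at 5.34 and Prdm14 KO cells 2 and 3 at 5.08 and 4.94. These 4 values lie just below the floor, and with a floor of 4 they would count as detected. For 0 of 4 Prdm14 KO cells the exact Clopper-Pearson 95% interval reaches 60.2%, so the absence of detected cells says little about that label.

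In the piRNA pathway *Asz1* (also known as Gasz), which helps to build the germ granules between mitochondria, stood apart from the other genes in its values. It was above the floor in 20 of 30 cells at values between 6.14 and 8.33, and the other 10 cells were listed at 0. The standard deviation of the detected values was 0.44, smaller than for most genes: of the 4587 genes above the floor in 10 to 25 cells, 8.96% had an SD no larger, and the median SD of those genes was 0.97. *Ddx4* and *Sycp3* had SDs of 1.02 and 1.17. Since the *Asz1* values lie close to the floor, a floor of 8 left 1 cell, Prdm14 KO cell 1. The second *Asz1* probe set (1424939_at) was above the floor in 0 cells, with Prdm14+/- cell 1 at 4.69 and WT cell 2 at 5.0 and all others at 0. The *Asz1* count thus rests on 1 of its 2 probe sets.

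By label, *Asz1* was above the floor in 9 of 13 WT, 8 of 13 Prdm14+/- and 3 of 4 Prdm14 KO cells. The floored values of the 13 WT cells ran from 6 over a median of 7.39 to 7.89, and those of the 13 Prdm14+/- cells from 6 over 6.86 to 7.96. The Prdm14 KO cells were at 8.33, 7.38, 7.68 and the floor. Prdm14 KO cell 1 was thus the highest of all 30, and the other detected Prdm14 KO cells lay within the range of the other labels.

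The remaining piRNA genes were detected in single cells. *Piwil2* (also known as Mili), the PIWI protein that binds piRNAs in fetal germ cells, was above the floor in Prdm14+/- cell 3 at 8.08, Prdm14+/- cell 4 at 9.5 and Prdm14 KO cell 3 at 8.58. A further 5 cells had values between 1.37 and 2.86, and no WT cell was above the floor. *Mov10l1*, the RNA helicase that feeds piRNA precursors into processing, reached 8.67 in Prdm14+/- cell 1, and Prdm14 KO cells 1 and 2 were below the floor at 5.24 and 5.17. *Mael*, a germ granule protein with a role in transposon silencing, reached 8.16 in Prdm14+/- cell 9 and was listed at 0 in the other 29. *Tdrd1*, a Tudor domain protein that binds PIWI proteins, was listed at 0 in every cell. *Piwil2*, *Mov10l1* and *Mael* were thus detected in 5 different cells, and 2 of the *Piwil2* cells also held *Ddx4* and *Sycp3*.

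*Stk31*, a germ cell protein with a Tudor and a kinase domain, was read by 2 probe sets that gave nearly the same cells. With the first (1425317_x_at) 6 cells were above the floor, namely WT cell 6 at 8.66, WT cell 12 at 7.87, Prdm14+/- cells 1, 4 and 11 at 8.61, 9.5 and 9.30, and Prdm14 KO cell 2 at 8.32. The x in the name of the first marks probes that may also match other transcripts. The second (1454138_a_at) was above the floor in 5 of these cells and at 5.81 in WT cell 12. The cells with the transcript came from all 3 labels and all 3 runs.

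Of the meiotic chromosome genes, *Sycp3*, a component of the axial elements of the synaptonemal complex, was detected and *Hormad1*, which monitors that axis, was not. *Sycp3* was above the floor in 13 cells at 7.01 to 11.88, and a further 2 cells lay at 4.13 and 4.24. Of the WT cells, 6 of 13 were above the floor, all in run 1, at 8.65 to 10.60, and the median over the 13 cells was the floor. Of the Prdm14+/- cells, 5 of 13 were above it, with a highest value of 11.88 in cell 4. The Prdm14 KO cells had 8.62 in cell 3, 7.01 in cell 2, 4.13 in cell 1 and 0 in cell 4. The 2 detected Prdm14 KO cells were thus below the lowest detected cells of the other labels, 8.65 for WT and 8.81 for Prdm14+/-, cell 3 only just. With the cells at the floor counted, the values of the labels overlapped. *Hormad1* was above 0 in 5 cells, at 0.18 to 2.33, far below the floor.

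**Figure D3:**
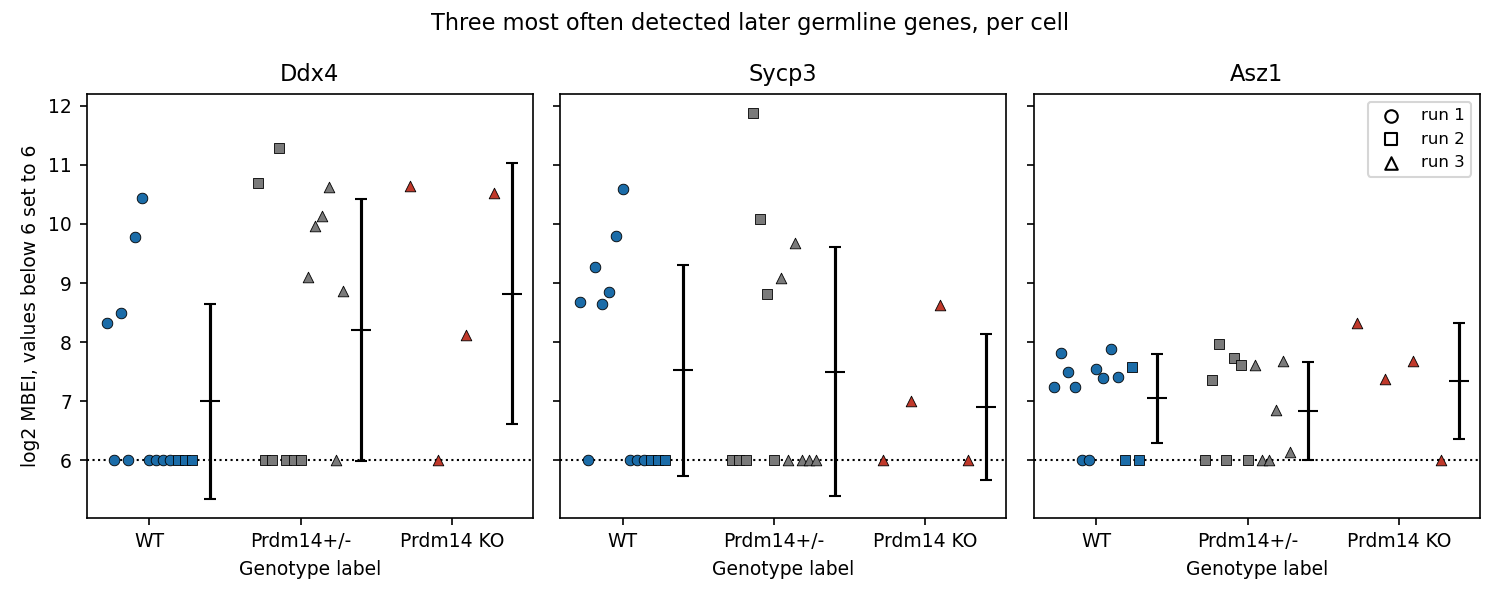
Floored log2 MBEI (vertical axis, values below 6 set to 6) of *Ddx4*, *Sycp3* and *Asz1* in each single cell, by genotype label, with the symbol giving the array run and horizontal marks with bars giving the mean and SD over cells. *Ddx4* and *Sycp3* split into cells at the floor and cells at 7.01 to 11.88, whereas the detected *Asz1* values stay between 6.14 and 8.33.

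The 3 genes detected in the most cells were not detected together as a block. *Ddx4* and *Sycp3* were both above the floor in 8 cells, *Ddx4* alone of the pair in 6, *Sycp3* alone in 5, and neither in 11. *Ddx4* and *Asz1* shared 7 cells, with 7 holding *Ddx4* without *Asz1* and 13 the reverse. *Sycp3* and *Asz1* shared 9 cells. Of the 6 *Stk31* cells, 4 held *Ddx4*. All cells counted here share their array with every gene, so these counts are a description.

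Each cell held between 0 and 4 of the 10 transcripts above the floor, 1.93 ± 1.08 (SD, n = 30 cells) on average. There were 3 cells with 0, 7 with 1, 11 with 2, 7 with 3 and 2 with 4. The 2 cells with 4 were Prdm14+/- cell 4 of run 2, with *Ddx4* at 11.29, *Sycp3* at 11.88, *Piwil2* and *Stk31*, and Prdm14 KO cell 3 of run 3, with *Ddx4*, *Sycp3*, *Asz1* and *Piwil2*. Prdm14+/- cell 4 had the highest *Ddx4* and the highest *Sycp3* value of all 30 cells. The cells with 0 were WT cells 11 and 13 and Prdm14+/- cell 7, all in run 2. The 3 WT cells of run 2 together held 2 of the transcripts, *Asz1* and *Stk31*, both in cell 12.

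The number of transcripts per cell was read beside the number of all genes detected in the same cell. All genes above the floor numbered 5752 to 8149 per cell. The 2 cells with 4 of the transcripts had 7345 and 7565, and the 3 cells with 0 had 6084, 7420 and 7744, so both ends of the scale lay in the same range. WT cell 2, with the most genes (8149), held *Asz1* alone, and Prdm14+/- cell 1 held 3 of the transcripts with 5926 genes. Prdm14+/- cell 11, in which 3 of the 9 PGC markers were above the floor and the somatic mesoderm score was the highest of all cells (10.22), held *Ddx4*, *Asz1* and *Stk31*.

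**Figure D4:**
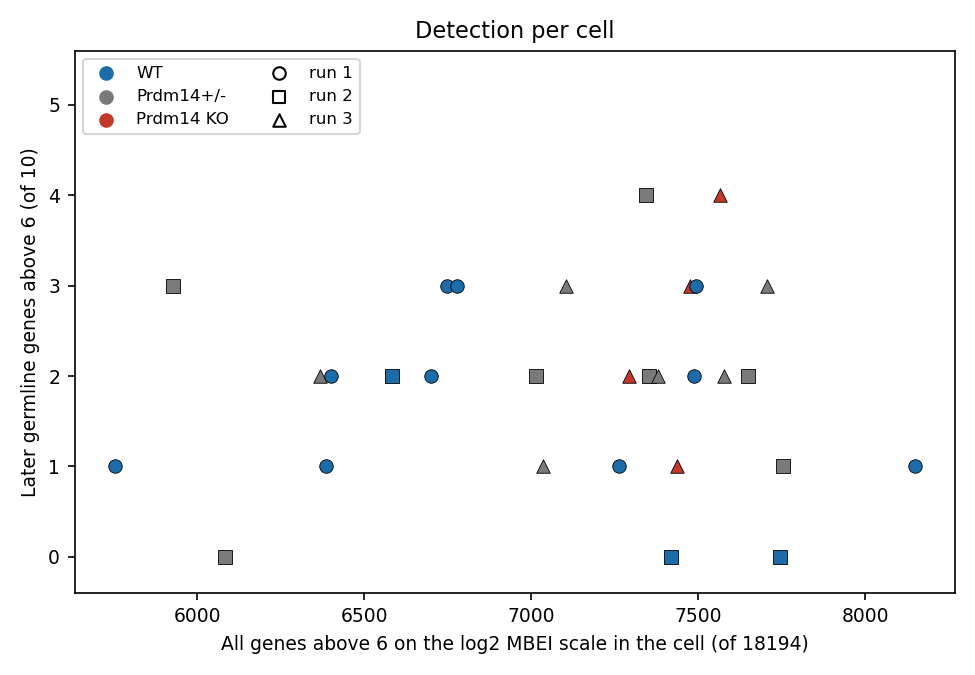
Number of later germline genes above the floor in a cell (vertical axis, of 10) against the number of all genes above the floor in that cell (horizontal axis, of 18194), with colour for the genotype label and symbol for the array run. The 2 cells with 4 genes lie at 7345 and 7565 and the 3 cells with 0 at 6084, 7420 and 7744.

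By label, the number per cell had a lowest, median and highest value of 0, 2 and 3 in WT, 0, 2 and 4 in Prdm14+/-, and 1, 2.5 and 4 in Prdm14 KO cells, with means of 1.62, 2.08 and 2.50. The ranges overlapped and the means differed by less than the SDs of 1.04, 1.04 and 1.29 between cells. By run, the means were 1.9, 1.6 and 2.3. The 4 Prdm14 KO cells had 7292 to 7565 genes of all kinds above the floor and 8 or 9 of the 9 PGC markers, whereas WT cells had 5752 to 8149 genes and 5 to 8 markers, and Prdm14+/- cells 5926 to 7753 genes and 3 to 9 markers. The somatic mesoderm score, the mean floored log2 value of 12 measured genes, ran from 7.96 to 9.41 in Prdm14 KO, 8.13 to 9.48 in WT and 7.71 to 10.22 in Prdm14+/- cells, with 6 to 11 of the 12 genes above the floor in every cell. The blood and endothelial score was taken over 7 genes. It was 6.52 to 7.23 in Prdm14 KO, 6 to 6.60 in WT and 6 to 7.18 in Prdm14+/- cells. Of its genes, *Kdr* was above the floor in 2 of 13 WT, 4 of 13 Prdm14+/- and 4 of 4 Prdm14 KO cells. In the same order, *Lmo2* was above it in 5, 9 and 4 cells and *Pecam1* in 1, 2 and 2. *Cdh5* was above it in 1, 0 and 1 cells and *Tal1* in 1, 1 and 0. The red cell markers *Gata1* and *Hbb-bh1* were above it in 0 of the 30 cells. Their highest values, 5.93 and 5.997, lay just below the floor. The part of these differences in the number of later germline transcripts was not tested.

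Differences of mean floored log2 values were taken between labels, and no p-value was computed because each label is 1 sample when no embryo is named. Between Prdm14 KO and WT cells, *Ddx4* was the only one of the 10 genes with a difference of at least 1, at 8.82 ± 2.21 (SD, n = 4 cells) against 7.0 ± 1.65 (SD, n = 13 cells), a difference of 1.82 with a pooled SD of 1.77. The difference depended on the floor, being 0.93 and so under 1 with a floor of 8 and 2.70 with a floor of 4, and on single cells, being 1.21 without Prdm14 KO cell 1, 1.25 without cell 4 and 2.76 without cell 2. Of all genes, 7.9% were at least 1 higher and 4.32% at least 1 lower, and 0 of the 10 were lower. With the run as a block, a fit that rests on the 3 WT cells of run 2, the *Ddx4* difference was 1.13. *Sycp3* was 0.62 lower before that step (6.91 against 7.53, pooled SD 1.69) and 1.61 higher after it, so it has no settled direction. *Asz1* differed by 0.30 (pooled SD 0.80) and by 1.06 with the block, but by -0.04 after quantile normalization and -0.03 without Prdm14 KO cell 1. *Piwil2* differed by 0.64, by 1.44 with the block, by 1.14 with a floor of 4 and by 0 without Prdm14 KO cell 3.

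Within run 3, the Prdm14 KO cells differed from the Prdm14+/- cells by less than 1 in all 10 genes, where 8.6% of all genes were at least 1 higher and 5.62% at least 1 lower. *Ddx4* was at 8.82 ± 2.21 (SD, n = 4 cells) and 9.12 ± 1.66 (SD, n = 6 cells), a difference of -0.30 whose sign rested on 1 cell: it was 0.64 without Prdm14 KO cell 2, -0.91 without cell 1 and -0.86 without cell 4. *Asz1* was 0.63 higher (pooled SD 0.87), and 1.08 higher without Prdm14 KO cell 4. *Sycp3* differed by -0.22 (pooled SD 1.58), and by 0.08 without Prdm14 KO cell 1 or cell 4 and 0.11 with a floor of 4. *Piwil2* was 0.64 higher, and 1.14 with a floor of 4. These differences share the Prdm14 KO cells with those from WT. Within run 2, *Ddx4* and *Sycp3* were 1.43 and 1.83 higher in the Prdm14+/- than in the WT cells, in which both were listed at 0 throughout, with pooled SDs of 2.11 and 2.12. There, 2 of the 10 genes were at least 1 higher and 0 at least 1 lower, against 6.02% and 8.3% of all genes, and the WT side was 3 cells. That count rested on the floor: with a floor of 8 *Ddx4* differed by 0.85 and *Sycp3* by 0.97, both under 1, and with a floor of 4 by 2.0 and 2.68, and *Piwil2* by 1.37. A housekeeping gene, *Hprt*, was above the floor in 0 of the same 3 WT cells and in 6 of the 7 Prdm14+/- cells of run 2. It was above it in all 10 WT cells of run 1, but in 3 of 6 Prdm14+/- and 1 of 4 Prdm14 KO cells of run 3. The other 7 housekeeping genes measured were above it in all 30 cells. The mean housekeeping score in run 2 was 11.97 ± 0.04 (SD, n = 3 cells) in WT and 12.32 ± 0.29 (SD, n = 7 cells) in Prdm14+/- cells. In run 3 it was 12.07 ± 0.27 (SD, n = 6 cells) in Prdm14+/- and 11.91 ± 0.26 (SD, n = 4 cells) in Prdm14 KO cells. *Hprt* is 1 of the 8 genes of this score, so the score is not a separate reading. Within run 2 *Hprt* was 4.05 higher in Prdm14+/- than in WT cells, whereas the median difference of the 8 genes was -0.05. Between Prdm14 KO and Prdm14+/- cells within run 3, *Hprt* differed by -1.09 and the median of the 8 by -0.06. The part of *Hprt* and of this score in the differences within runs 2 and 3, and in the fit with the run as a block, was not tested. Each label had at least 1 cell at the floor for each of the 10 genes in each of the 3 comparisons. The floored values of the labels could therefore only overlap, and that overlap does not compare the labels.

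The mean over the 10 genes, taken as a score, was 6.39 ± 0.33 (SD, n = 13 cells) in WT, 6.61 ± 0.47 (SD, n = 13 cells) in Prdm14+/- and 6.63 ± 0.21 (SD, n = 4 cells) in Prdm14 KO cells. The difference between Prdm14 KO and WT was 0.24 (pooled SD 0.31), or 0.55 with the run as a block. It was 0.04 between Prdm14 KO and Prdm14+/- within run 3 (pooled SD 0.26) and 0.51 between Prdm14+/- and WT within run 2 (pooled SD 0.54), each within 1 SD of the cells. Across labels, the order of the means was WT, Prdm14+/-, Prdm14 KO for *Ddx4* (7.0, 8.21 and 8.82), the reverse for *Sycp3* (7.53, 7.50 and 6.91), and Prdm14+/-, WT, Prdm14 KO for *Asz1* (6.84, 7.05 and 7.35). No neighbours in these orders differed by more than the SD between cells.

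Other genes of the same pathways were read from lists drawn up by function. Of 15 other piRNA pathway genes measured, 4 were above the floor in at least 15 cells and 4 in none, against 39.6% and 27.1% of all genes. In Prdm14 KO cells 2 were at least 1 higher and 0 at least 1 lower than in WT cells, against the 7.9% and 4.32% of all genes. Those 2 were *Mov10* and *Tdrd9*. Within run 3, 3 were at least 1 higher than in Prdm14+/- cells and 1 at least 1 lower (*Tdrkh*, -1.15), against 8.6% and 5.62%. Those 3 were *Mov10* (2.45), *Tdrd5* (2.19) and *Tdrd9* (1.38). Detected most often were *Mov10* (28 cells), a widely expressed helicase related to *Mov10l1*, *Tdrd5* (25 cells), a Tudor protein of the germ granule, *Ddx25* (19 cells), a testis helicase, and *Exd1* (17 cells), a partner of *Tdrd12*. *Tdrkh*, which tethers PIWI proteins to mitochondria, was above the floor in 0 of 13 WT, 9 of 13 Prdm14+/- and 3 of 4 Prdm14 KO cells, at 6.57 to 9.70. In run 2, which held both labels, it was 0 of 3 WT against 4 of 7 Prdm14+/- cells. *Tdrkh* differed by 0.74 between Prdm14 KO and WT (pooled SD 0.26), by 0.35 with the run as a block, and by -1.15 between Prdm14 KO and Prdm14+/- within run 3.

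Of 22 other meiosis genes measured, 1 was above the floor in at least 15 cells and 5 in none, against 39.6% and 27.1% of all genes. In Prdm14 KO cells 4 were at least 1 higher and 0 at least 1 lower than in WT cells, against 7.9% and 4.32% of all genes. The 4 were *Stag3*, *Rec8*, *Tex15* (1.48) and *Mei4* (1.01). Within run 3, 3 were at least 1 higher than in Prdm14+/- cells and 1 at least 1 lower (*Hormad2*, -1.03), against 8.6% and 5.62%. Those 3 were *Stag3* (2.45), *Tex15* (1.45) and *Syce2* (1.04), whereas *Mei4* differed by 0.42 there. The gene detected in at least 15 cells was *Syce2*, a central element protein of the synaptonemal complex, above the floor in all 30 cells with a median of 12.13. *Sycp1* and *Sycp2*, which build the same complex, and *Stra8*, the inducer of meiosis, were above it in 0. *Stag3*, a meiotic cohesin subunit, was above the floor in 3 of 13 WT, 7 of 13 Prdm14+/- and 4 of 4 Prdm14 KO cells, and its mean was 9.75 in Prdm14 KO against 6.69 in WT cells, a difference of 3.06 (pooled SD 1.30), or 4.59 with the run as a block. Within run 3 the difference from the Prdm14+/- cells was 2.45 (pooled SD 1.65). *Rec8*, its kleisin partner, was above the floor in 3 of 13, 7 of 13 and 3 of 4 cells, and the difference was 1.18 from WT (pooled SD 0.70), 1.73 with the block and 0.51 within run 3 (pooled SD 1.15). The median over the 22 genes was 0 in all 3 comparisons, as was that of all genes.

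Of 13 further germline genes, *Ybx2*, an RNA-binding protein of oocytes and spermatids, alone was above the floor in at least 15 cells (17). Another 4 genes were above it in 0, and the shares of all genes were 39.6% and 27.1%. *Ybx2* was detected in 6 of 13 WT, 7 of 13 Prdm14+/- and 4 of 4 Prdm14 KO cells, and was 2.72 higher in Prdm14 KO than in WT cells (9.71 against 6.99, pooled SD 1.14), or 3.46 with the run as a block. It was the 1 gene of the 13 with a difference of at least 1, where 7.9% of all genes were at least 1 higher and 4.32% at least 1 lower. The PGC markers differed in the same direction between these labels. Of 9 markers, 7 were at least 1 higher in Prdm14 KO than in WT cells and 0 at least 1 lower. Their median was 1.73, and their part in the values of the germline genes was not tested. Of these 9 markers, 8 were above the floor in at least 15 cells, against 39.6% of all genes.

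**Figure D5:**
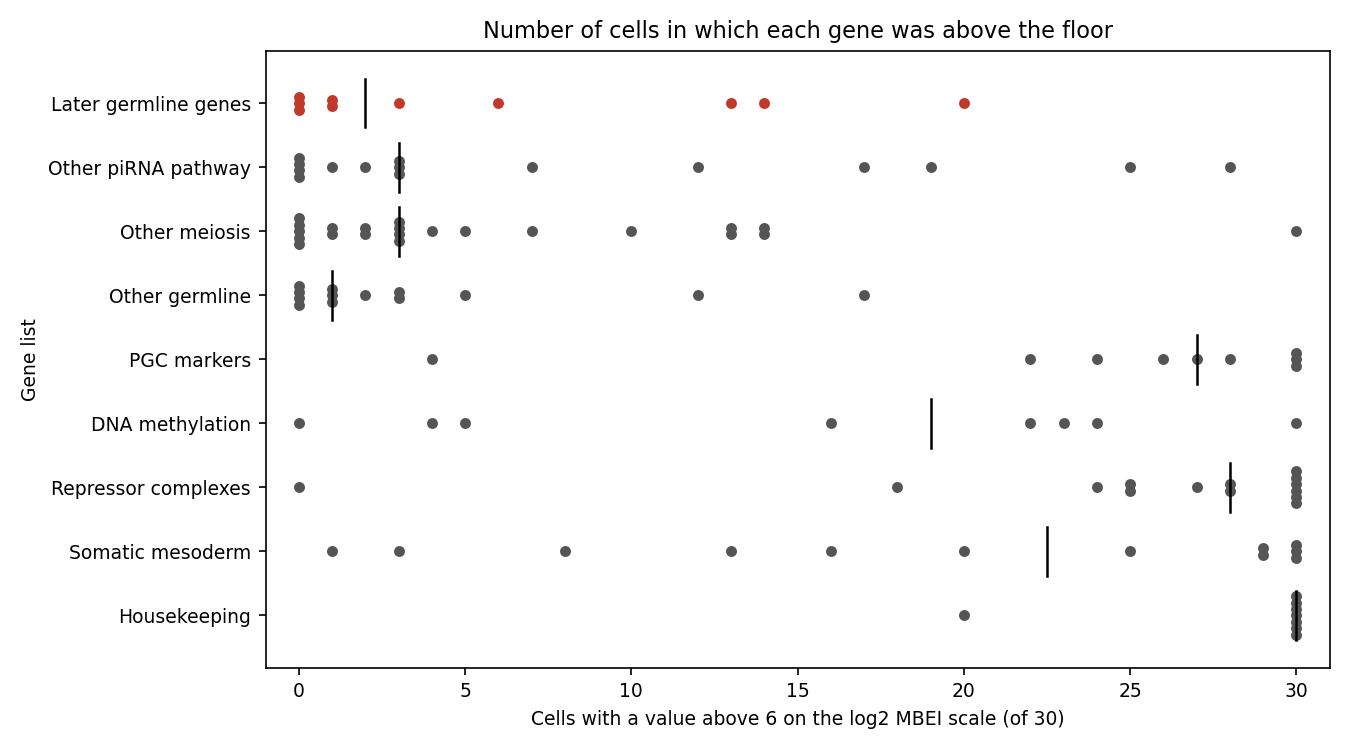
Number of the 30 cells in which a gene was above 6 on the log2 MBEI scale (horizontal axis), 1 dot per gene, by gene list (vertical axis), with black lines at the list medians. The later germline genes (red) run from 0 to 20 cells, with 1 gene at 15 cells or more, whereas 8 of 9 PGC markers lie there.

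Genes of DNA methylation and of germline repressor complexes were read as well, and most but not all were detected in most cells. *Dnmt1*, the maintenance DNA methyltransferase, was above the floor in 30 of 30 cells, its partner *Uhrf1* in 23, the de novo enzymes *Dnmt3b* and *Dnmt3a* in 24 and 16 and their cofactor *Dnmt3l* in 5. Of the oxidases of methylated cytosine, *Tet1* was above the floor in 22 cells, *Tet2* in 4 and *Tet3* in 0. Between Prdm14 KO and WT cells, *Dnmt3b* differed by -3.52 (pooled SD 1.74; 2 of 4 against 12 of 13 cells above the floor), *Uhrf1* by -2.02 (pooled SD 1.77) and *Tet1* by 2.33 (pooled SD 1.55), and the other 5 genes of the list by less than 1. Within run 3, the differences of these 3 genes from the Prdm14+/- cells were -2.82, -1.45 and 2.75. *Dnmt3a* (-1.04) and *Tet2* (1.196) also differed by at least 1 there. Of the 8 genes of the list, 2 were thus at least 1 higher and 3 at least 1 lower within run 3, against 8.6% and 5.62% of all genes. Of all genes 39.6% were above the floor in at least 15 cells, and of 14 repressor complex genes measured, 13 were. Among them were *Mga* (24 cells), *Max* (25), *E2f6* (28), *L3mbtl2* (27) and *Pcgf6* (28), which form the complex that binds E-box and E2F motifs at germline promoters, and *Setdb1* and *Trim28* (30 each), which act in H3K9 methylation. The remaining gene, *Cbx3*, was above the floor in 0 cells, with a highest value of 5.95, just below the floor. Between Prdm14 KO and WT cells, *Pcgf6* was at least 1 higher (1.04), and *Max* (-1.07) and *Ehmt1* (-1.80) at least 1 lower. Of all genes, 7.9% were at least 1 higher and 4.32% at least 1 lower. Within run 3, *L3mbtl2* (1.18) and *Mga* (1.06) were at least 1 higher, and *Max* (-1.90) and *Ehmt1* (-1.25) at least 1 lower. There the shares of all genes were 8.6% and 5.62%.

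The genes whose floored values ran most like those of a member over the 30 cells were listed for *Ddx4*, *Sycp3* and *Asz1*, among 9141 genes above the floor in at least 8 cells. For *Ddx4* these were *Elavl2* (Pearson r = 0.73), *Cnot6l* (0.71) and *Mogat1* (0.66), and 9 of the 11 *Elavl2* cells held *Ddx4*. For *Sycp3* they were *Fam71f1* (0.69), *Foxo1* (0.65) and *Tbc1d5* (0.60). For *Asz1* they were *Lmf2* (0.60), *Ebag9* (0.59) and *Gm7788* (0.57). *Lmf2* was above the floor in 25 of the 30 cells, among them all 20 *Asz1* cells. These are the highest of many coefficients over cells that share arrays and runs, and are given as a description.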

How the data were processed

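The deposited values are log2 MBEI, which the authors calculated with dChip 1.3 (PM/MM difference model) from 1 array per amplified single-cell cDNA, and they were used as they stand. How arrays were scaled and how a 0 arose is not given in the sources used. The number of arrays limits the precision. Probe sets were named through the platform annotation: 34958 had 1 symbol, 932 several, and 9211 are unnamed here. The probe set with the highest mean stood for a gene, and every member probe set was described. Values were floored at 6. A 0 from an absent transcript and one from failed amplification cannot be told apart. Pearson correlations between arrays were 0.578 to 0.737, and no 2 arrays were identical.

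Groups follow the genotype labels, and runs the array codes. Since no embryo is named, no test was run. Members, lists and alternatives were chosen with earlier results of these data known. Named genes were all members, genes of the lists, and for each member above the floor in 8 to 25 cells the 3 genes of highest Pearson r. List genes not found by symbol were not analysed here. Promoter windows are RefSeq's on GRCm38.p6. The code for differences was checked on simulated data. Alternatives were floors of 4 and 8, quantile normalization, a common mean over 3239 probe sets above 0 on all arrays, the mean over probe sets, the run as a block, medians and left-out cells. NumPy 2.4.6, pandas 2.3.3 and SciPy 1.17.1 were used.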

Additional observations from a re-analysis of the deposited data

Results flagged for a closer look

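In the 4 cells labelled Prdm14 KO, *Piwil2* and *Stk31* each had 1 cell far from the rest: the gap of that cell to the nearest other, divided by the range of the group, was 1 for both. *Piwil2* was at 8.58 in cell 3 and *Stk31* at 8.32 in cell 2, and the other 3 cells were at the floor in each case. Of 6 groups of values examined in this label 2 stood out in this way. With values at a common floor any gene detected in a single cell does so. A chance rate of about 1 in 20 therefore does not apply to this count.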

How the results depend on the processing

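Of 45 recomputed values for the number of later germline genes per cell and the 3 score differences, 44 stayed within 1 SD of the cells. The exception was the Prdm14 KO and WT difference of 0.24, which was 0.55 with the array run as a block; the cause was not tested. Its other values ran from 0.07 (floor of 8) to 0.52 (floor of 4), and from 0.15 to 0.30 when each Prdm14 KO cell was left out in turn. The difference within run 3 was 0.04 and had no stable sign: it was -0.04 with a floor of 8, -0.02 after quantile normalization, -0.05 without Prdm14 KO cell 3 and 0.10 without cell 4. Within run 2 the difference ran from 0.24 (floor of 8) to 0.78 (floor of 4), and from 0.45 to 0.63 when each WT cell was left out. The number of genes per cell was 1.23 with a floor of 8, 2.23 with a floor of 4 and 1.86 to 1.97 with a Prdm14 KO cell left out. In alternatives chosen after seeing the data, it was 1.27 of the remaining genes without *Asz1* and 1.96 without the 3 cells with at most 5 PGC markers, where the differences were 0.20, 0.10 and 0.49. Of 270 values for single genes 10 moved by more than 1 SD, 4 of them with a floor of 4, and *Piwil2* between Prdm14 KO and WT was 0 without Prdm14 KO cell 3. *Dazl*, *Hormad1* and *Tdrd1*, at the floor in all 30 cells, had little room to move. Where the SD was large, a change of sign was not counted as a move. *Ddx4* within run 3, for example, went from -0.30 to 0.64 without Prdm14 KO cell 2. The count of unmoved values is therefore no measure of stability. No paired analysis was possible because the labels give no replicate numbers that tie cells together across genotypes.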
